A study of Homo sapiens with 13 samples.

Results

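Chromosome 19 carries 249 protein-coding genes whose symbol is ZNF followed by a digit, out of 20176 protein-coding genes in GENCODE release 44 mapped to hg19. They were chosen by chromosome and symbol only, with no measured value. For 246 of them the annotation gives a canonical transcription start site (TSS), against 19894 of all genes, and the 3 without one (ZNF442, ZNF714 and ZNF43) were read over the gene body alone. Promoters were read as windows of 3 kb, 1.5 kb to each side of the canonical TSS, and gene bodies as the annotated gene outside that window.

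The study mapped chromatin in MDA-MB-231 cells, an established human triple negative breast cancer cell line, grown in standard culture. Its 13 samples comprised 2 each of chromatin input and of immunoprecipitations for H3K4me1, H3K4me3, H3K27ac, RNA polymerase II (Pol II) and CTCF, and 1 for p300/CBP. There was 1 cell line in 1 condition, and the samples differed only by antibody. The deposited data were 1 list of peak positions per antibody, made from merged replicates, so that no value here has a replicate error and read depth is unknown. The lists held 24693 H3K4me3, 41034 H3K27ac, 88319 H3K4me1, 26065 Pol II, 39596 CTCF and 13984 p300/CBP peaks.

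Most of these genes encode C2H2 zinc finger proteins, and many of those start with a KRAB domain, which recruits the corepressor TRIM28 (KAP1) and through it the H3K9 methyltransferase SETDB1. KRAB zinc finger proteins are best known for silencing transposable elements, and the genes arose in tandem arrays, so that neighbours are often close relatives. H3K4me3 marks promoters in use, H3K27ac active promoters and enhancers, H3K4me1 enhancers and the flanks of promoters, while CTCF binds insulators and loop anchors and p300/CBP are acetyltransferases found at enhancers.

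H3K4me3 was present in the windows of 207 of 246 zinc finger genes, or 84.1% (95% Wilson interval 79.1 to 88.2), where 62.7% of all protein-coding genes had it. H3K27ac, which the study uses to call a window a candidate active promoter, was present in 202 (82.1%, 76.8 to 86.4) against a background of 61.4%. Pol II was present in 201 (81.7%, 76.4 to 86.0) against 58.4%. These 3 lists were thus found at more zinc finger genes than at the genes at large, and above the 1225 other genes of chromosome 19, whose shares were 60.8%, 61.4% and 61.2%. The intervals cover counting error only, since neighbouring and related genes are not independent observations.

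H3K4me1 ran the other way along the same chromosome. It was present in 133 zinc finger windows (54.1%, 47.8 to 60.2), against 59.3% of all genes and 70.8% (68.2 to 73.3) of the other chromosome 19 genes. The share of all genes lay inside the members' interval. The members were uneven, with H3K4me1 in 1 of 35 in the fourth and 13 of 40 in the eighth of the clusters described below. CTCF was present in 33 (13.4%, 9.71 to 18.2) against 17.6% of all genes. A p300/CBP peak lay in the window of ZNF114 alone, 0.407% of the members (0.0718 to 2.27) against 0.769% of all genes. No peak of any list touched 38 windows (15.4%, 11.5 to 20.5), against 28.0% of all genes. The 265 ZNF genes of other chromosomes resembled the members in H3K4me3 (220 of 265), H3K27ac (82.3%) and Pol II (78.1%), and had H3K4me1 in 66.4% (60.5 to 71.8).

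**Figure D1:**
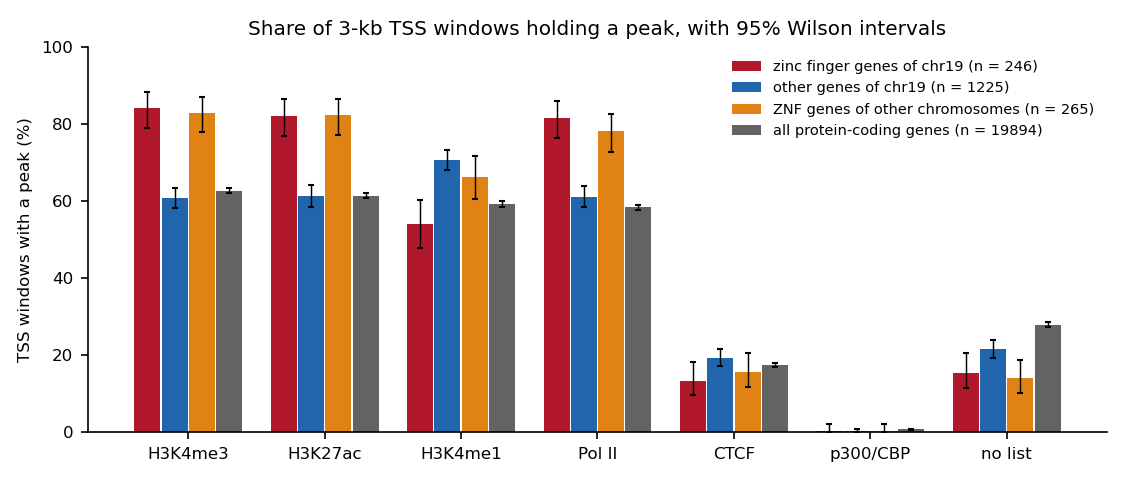
Percent of 3-kb TSS windows with a peak of each list (vertical axis) for the 246 zinc finger genes of chromosome 19, the 1225 other genes of that chromosome, the 265 ZNF genes of other chromosomes and all 19894 protein-coding genes. Bars are shares and lines 95% Wilson intervals of counting error. The zinc finger genes stand above the other chromosome 19 genes in H3K4me3 (84.1 against 60.8%), H3K27ac and Pol II, and below them in H3K4me1 (54.1 against 70.8%).

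The contrast depended on peak width. When peaks narrower than the median width of their list were left out, the H3K27ac shares came to 47.6% of members and 49.3% of other chromosome 19 genes, so the difference was gone, and Pol II reversed, with 27.2% against 46.4%. H3K4me3 stayed higher at the members (78.5% against 54.4%) and H3K4me1 lower (18.3% against 51.4%). The widest H3K27ac peak touching the window had a median of 1450 bp over the 202 members with one, the H3K4me1 peak 850 bp and the Pol II peak 650 bp, where the other chromosome 19 genes had medians of 2100, 1900 and 1450 bp. The peaks at zinc finger promoters were thus narrower than at those genes. ZNF genes of other chromosomes lay between, with medians of 1800, 1100 and 950 bp. For H3K4me3 the medians were 1950 bp and 2200 bp, and among members it had a range from 550 bp at ZNF737 to 4600 bp at ZNF580 and ZNF581.

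The lists fell into few combinations. H3K4me3, H3K27ac and Pol II together were found in 199 members (80.9%, 75.5 to 85.3), against 56.2% of all genes. Of the 246 windows, 111 held these 3 and H3K4me1, 58 held these 3 alone, 18 held all 4 and CTCF, 11 held the 3 and CTCF, and ZNF114 held all 6 lists. Counted with or without CTCF, 69 members (28.0%, 22.8 to 34.0) had the 3 lists and no H3K4me1, where 8.09% of all genes did. The share was 17.4% (13.3 to 22.4) in ZNF genes of other chromosomes. Of the 69, 23 lay in the fourth and 19 in the eighth of the clusters described below.

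Only 9 members fell between these classes and the 38 empty windows. ZNF737, ZNF880 and ZNF418 had H3K4me3 alone, in peaks of 550, 850 and 600 bp. ZNF577 and ZNF813 had H3K4me3 (1550 and 1150 bp) with Pol II (500 and 200 bp) but no H3K27ac. These H3K4me3 peaks all lay under the members' median width. ZNF582 had H3K4me3 over 1000 bp, H3K27ac over 200 bp and a CTCF peak of 300 bp, with no Pol II. ZNF570 had 1750 bp of H3K4me3, 250 bp of H3K27ac and 350 bp of H3K4me1, in a window that overlaps that of ZNF569. ZNF256 had 1750 bp of H3K4me3, 200 bp of H3K27ac, 350 bp of H3K4me1 and 150 bp of CTCF. ZNF587B was the sole member with H3K4me1 (950 bp) and CTCF (350 bp) and neither H3K4me3 nor H3K27ac.

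By position, 235 of the members with a TSS lay in 9 clusters, set as runs of at least 5 members with gaps of at most 1 Mb, and 11 lay outside them. H3K27ac was present in 80.0 to 100% of the members of every cluster but the fourth, at chr19:19779648-24269989 from its first to its last TSS, where 24 of 35 members had it (68.6%, 52.0 to 81.4). H3K4me1 varied far more. In the fourth cluster 1 of 35 members had it (2.86%, 0.506 to 14.5), and in the eighth, at chr19:52074536-54041399, 13 of 40 (32.5%, 20.1 to 48.0). In the other 7 clusters the share ranged from 56.2% to 80.0%, and it was 74.6% (62.2 to 83.9) in the largest, the 59 members at chr19:55987984-58987719.

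**Figure D2:**
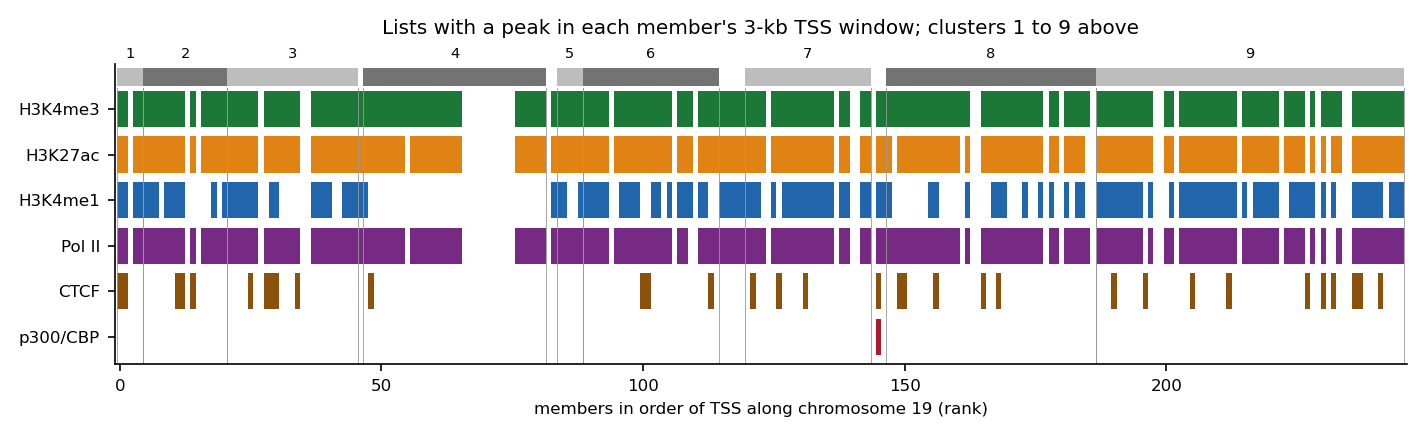
Presence of a peak of each list (rows) in the 3-kb TSS window of each of the 246 members, in order along chromosome 19 (horizontal axis, rank). Grey bars above number the 9 clusters. The H3K4me1 row is nearly empty over cluster 4, where 1 of 35 members has it, and all rows are empty over a run of 10 members there.

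**Figure D3:**
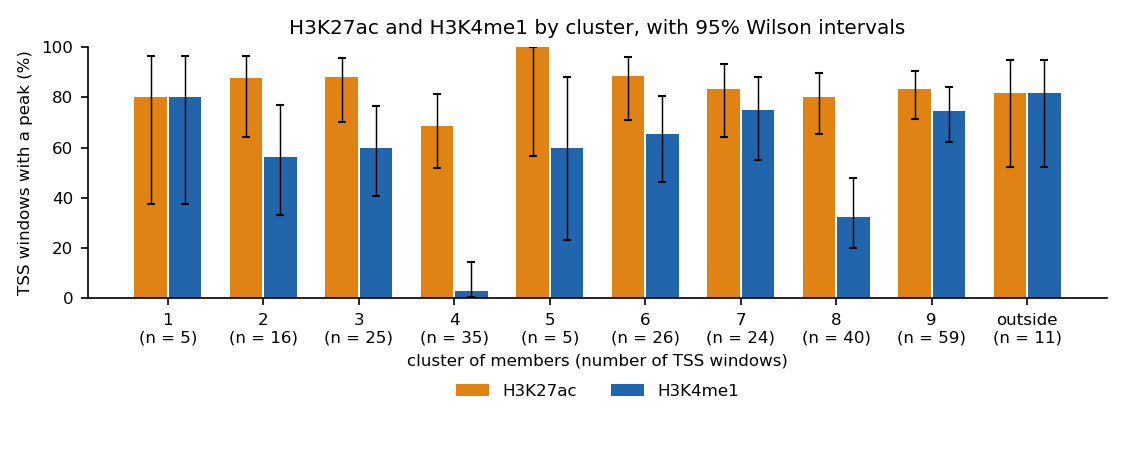
Percent of members with H3K27ac and with H3K4me1 in the TSS window (vertical axis) in clusters 1 to 9 and in the 11 members outside them. Lines are 95% Wilson intervals of counting error, and the number of windows stands under each pair. H3K4me1 is at 2.86% in cluster 4 and 32.5% in cluster 8, and between 56.2 and 81.8% elsewhere.

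The first cluster, at chr19:2819866-2944969, held 5 members. ZNF554, ZNF555, ZNF57 and ZNF77 had H3K4me3, H3K27ac, Pol II and H3K4me1, and ZNF556 had none. The second, at chr19:7069714-9879414, held 16. There 9 members had the 4 lists (ZNF557, ZNF358, ZNF414, ZNF317, ZNF699, ZNF559, the readthrough ZNF559-ZNF177, ZNF561 and ZNF846), while ZNF558, ZNF266, ZNF426, ZNF121 and ZNF562 lacked H3K4me1, and ZNF177 and ZNF560 had no list.

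The third cluster, at chr19:11616654-12721734, held 25 members. Here 15 had the 4 lists, ZNF69, ZNF433, ZNF878, ZNF844, ZNF20, ZNF443 and ZNF709 lacked H3K4me1, and ZNF439, ZNF625 and the readthrough ZNF625-ZNF20 had no list. ZNF625 lay 6.36 kb from the TSS of ZNF136, the shortest distance from an empty window to a marked member.

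All 5 members of the fifth cluster, at chr19:35168583-35455133, had H3K4me3, H3K27ac and Pol II, with H3K4me1 at ZNF302, ZNF181 and ZNF792 and without it at ZNF599 and ZNF30. The sixth, at chr19:36705567-38270226, held 26: 16 had the 4 lists, ZNF461, ZNF829, ZNF568, ZNF585B, ZNF607 and ZNF573 lacked H3K4me1, and ZNF382, ZNF875 and ZNF793 had none. In the seventh, at chr19:44037340-45579736, 18 of 24 had the 4 lists, ZNF283 and ZNF221 lacked H3K4me1, and ZNF404, ZNF233, ZNF285 and ZNF229 had none.

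The eighth cluster was split. With H3K4me3, H3K27ac and Pol II, 13 members also had H3K4me1 (among them ZNF175, ZNF841, ZNF83 and ZNF160) and 19 did not (among them ZNF649, ZNF350, ZNF480 and ZNF468). ZNF534, ZNF578, ZNF415, ZNF677 and ZNF331 had no list. The distance from a TSS to the nearest H3K4me1 peak had a median of 27.6 kb in this cluster, against 0.658 to 1.25 kb in the clusters other than this and the fourth.

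The ninth cluster, the last before the end of the long arm, contained 42 members with the 4 lists. ZNF470, ZNF550, ZNF671, ZNF606 and ZNF132 lacked H3K4me1. The 8 empty windows belonged to ZNF667, ZNF471, ZNF835, ZNF773, ZNF154, ZNF814, ZNF135 and ZNF329. ZNF154, whose promoter is known to be DNA methylated in many tumour types, lay 18.4 kb from ZNF671, which was marked. Outside the clusters, ZNF333, ZNF507, ZNF546, ZNF780B, ZNF780A, ZNF574, ZNF526, ZNF114 and ZNF473 had the 4 lists, and ZNF536 and ZNF541 had none.

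The fourth cluster, in 19p12 beside the centromere, includes ZNF91 and ZNF93, which are known to repress SVA and LINE-1 retrotransposons. Its 35 windows comprised ZNF101 with H3K4me3, H3K27ac, Pol II and H3K4me1, 23 members with the first 3 and no H3K4me1, ZNF737 with H3K4me3 alone, and 10 with nothing. ZNF91 had an H3K4me3 peak of 1750 bp, an H3K27ac peak of 1200 bp and a Pol II peak of 550 bp over its window, and ZNF93 had 2150, 1600 and 1200 bp. Both promoters thus carried the 3 lists with no H3K4me1. The narrowest H3K27ac peak of the cluster was that of ZNF626 (300 bp), whose H3K4me3 peak was 1100 bp wide and whose Pol II peak of 250 bp was matched in width by that of ZNF726. The widest H3K27ac and Pol II peaks were those of ZNF724 (1800 and 1250 bp).

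The lack of H3K4me1 was not limited to the windows. The 4.44 Mb of determined sequence between the first and last TSS held 4 H3K4me1 peaks. That was 0.901 per Mb, against 12.8 to 72.0 in the other clusters and 76.9 in the part of chromosome 19 outside all clusters. The 4 peaks lay at chr19:19780551-19781000 (450 bp, in the window of ZNF101), chr19:19885201-19886800 (1600 bp), chr19:19888051-19888600 (550 bp) and chr19:24236051-24238400 (2350 bp, in ZNF254 but 32.8 kb from its canonical TSS). From a member's TSS the nearest H3K4me1 peak was a median of 1050 kb away, with a lowest value of 0.348 kb and a highest of 2062 kb. The same span held 53 H3K4me3, 33 H3K27ac, 39 Pol II, 19 CTCF and 0 p300/CBP peaks, and 25 of the H3K4me3 and 23 of the H3K27ac peaks lay in members' windows. Per Mb these lists were lower there too than outside all clusters. H3K4me3 was at 11.9 against 32.7, H3K27ac at 7.43 against 38.4, Pol II at 8.78 against 43.9 and CTCF at 4.28 against 35.5. Members were also farther apart there, with a median spacing of 118 kb against 27.3 to 63.0 kb in the other clusters, and only 3 other genes with a TSS lay in the span.

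Among windows with H3K4me3, H3K27ac and Pol II, H3K4me1 accompanied them in 1 of 24 members of this cluster (4.17%, 0.739 to 20.2), in 129 of 175 other members (73.7%, 66.7 to 79.7), in 641 of 677 other chromosome 19 genes (94.7%, 92.7 to 96.1) and in 160 of 206 ZNF genes elsewhere (77.7%, 71.5 to 82.8). Over all members the count was 130 of 199 (65.3%, 58.5 to 71.6). Repeated sequence can lower a signal made of uniquely mapped reads, and whether it did so here was not tested. The values that follow are for TSS windows and not for the whole span. The median share of 50-base words of the window found elsewhere in the genome was 5.59% in the cluster and 2.03 to 9.89% in the other clusters, and with windows over 5% left out, the cluster had H3K4me1 in 0 of 12 (upper bound 24.2%) and the other members in 85 of 114 (74.6%).

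H3K4me1 went with the width of the H3K4me3 peak among members. Where the H3K4me3 peak was under 1500 bp, 9 of 31 members with the 3 lists had H3K4me1 (29.0%, 16.1 to 46.6). The share was 49.3% (34 of 69) from 1500 bp, 82.3% (51 of 62) from 2000 bp and 97.3% (36 of 37) from 2500 bp. Among other chromosome 19 genes no such gradient was seen, with 96.9% (95 of 98), 94.7%, 97.2% and 92.6% over the same widths. ZNF genes of other chromosomes had 72.1%, 72.1%, 85.4% and 79.2%. They lay between the other sets below 2500 bp and under both of them from 2500 bp. In the fourth cluster H3K4me3 peaks were narrower (median 1500 bp over the 24 members, against 2000 bp over the 175 other members), and in the narrowest class H3K4me1 was at 0 of 12 there and at 9 of 19 other members (47.4%, 27.3 to 68.3). How far signal strength at the peak threshold enters into this was not tested, since the lists carry no heights.

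The H3K4me3 and H3K27ac peaks over the TSS leaned into the genes. Pol II peaks did not, reaching a median of 346 bp upstream and 284 bp downstream over 197 members. Over the 206 members with an H3K4me3 peak on the TSS base, the peak reached a median of 688 bp upstream and 1160 bp downstream, against 929 and 1273 bp for 587 other chromosome 19 genes. In the fourth cluster H3K4me3 covered 0% of the 24 promoters at 1000 bp upstream and 66.7% at 1000 bp downstream, where the other members had 29.1% and 75.4%. H3K27ac covered the TSS base of 54.2% of the 24, against 91.4% of the other members. H3K4me1 was most frequent downstream, at 900 bp in the other members (43.4%) and at 1400 bp in other chromosome 19 genes (66.8%), and lower at the TSS base (13.9% of those genes).

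**Figure D4:**
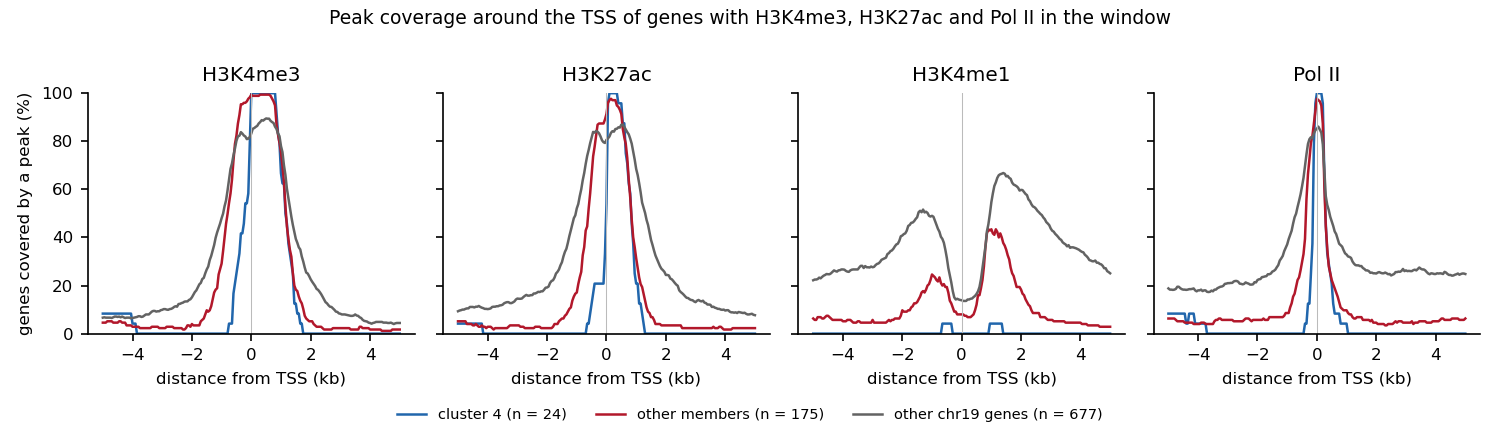
Percent of genes covered by a peak (vertical axis) at each distance from the TSS (horizontal axis, kb, positive downstream) for genes with H3K4me3, H3K27ac and Pol II in the window: 24 members of cluster 4, 175 other members and 677 other chromosome 19 genes. H3K4me3 of cluster 4 falls to 0% by 1000 bp upstream, and H3K4me1 reaches 43.4% at 900 bp in the other members while it stays at or below 4.17% in cluster 4.

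The empty windows of this cluster were consecutive. From ZNF208 to ZNF730, 10 members in a row (ZNF208, ZNF257, ZNF676, ZNF729, ZNF98, ZNF492, ZNF99, ZNF723, ZNF728 and ZNF730) had no peak in the window, with TSSs from chr19:22193745 to 23299827, a stretch of 1106 kb. From the first of these genes to the last lay 3 H3K4me3 and 3 CTCF peaks and none of the other lists. Of these, 2 H3K4me3 peaks lay in ZNF98, and the other H3K4me3 peak and the CTCF peaks lay in none of the 10 genes. Elsewhere the empty windows came singly or in 5 runs of 2. An empty canonical window did not mean an unmarked gene in every case. Of the 38, ZNF875 and ZNF331 had H3K4me3, H3K27ac and Pol II at another TSS of a basic protein-coding transcript, 16.8 and 17.2 kb away, and ZNF331, an imprinted gene, also had H3K4me1 there. ZNF404 and ZNF329 had the same 3 lists within 1.5 kb of the annotated 5' end of the gene, which lay 17.4 and 4.32 kb from the canonical TSS, and ZNF329 also had H3K4me1 and CTCF there.

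The promoters of this cluster shared letters. The 10-base word TCCAATCAGG, written on the strand of the gene, was the most common word of its 35 promoters (250 bases before to 50 after the TSS) and was found only after the sequences had been read. It contains CCAAT, the core of the CCAAT box. It stood in 31 of the 35 (88.6%), in 18 of 211 other members (8.53%), in 16 of 265 ZNF genes of other chromosomes (6.04%), in 4 of 1225 other chromosome 19 genes (0.327%) and in 0.478% of all promoters. The ETS motif, searched as CCGGAAG on both strands, stood in 24 of the 35 (68.6%, 52.0 to 81.4), every time as CTTCCGG on the gene's strand, and started at a median of 20 bases before the TSS (quartiles -23 and -18). All promoters had it in 14.1%. Shown are stretches around both matches from 4 of the 7 marked and all 3 unmarked members that hold both upstream of the TSS with no other annotated exon there. They are hg19 sequence on the gene's strand, and capitals mark TCCAATCAGG and CTTCCGG. They lie at chr19:19932563-19932660 (ZNF506, minus strand), chr19:20277955-20278016 (ZNF486), chr19:20959042-20959103 (ZNF66), chr19:21950382-21950443 (ZNF100, minus), chr19:22817063-22817124 (ZNF492), chr19:23185983-23186044 (ZNF728, minus) and chr19:23299764-23299825 (ZNF730), the last 3 from the unmarked run.
ZNF506: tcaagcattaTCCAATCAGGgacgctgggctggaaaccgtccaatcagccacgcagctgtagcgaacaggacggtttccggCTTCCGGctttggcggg
ZNF486: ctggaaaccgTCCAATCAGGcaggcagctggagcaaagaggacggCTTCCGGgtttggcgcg
ZNF66: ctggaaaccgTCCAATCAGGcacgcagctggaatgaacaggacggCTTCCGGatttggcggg
ZNF100: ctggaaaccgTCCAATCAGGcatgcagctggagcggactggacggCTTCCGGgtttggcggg
ZNF492: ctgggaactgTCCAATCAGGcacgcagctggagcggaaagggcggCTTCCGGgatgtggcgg
ZNF728: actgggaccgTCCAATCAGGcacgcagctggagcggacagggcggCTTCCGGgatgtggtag
ZNF730: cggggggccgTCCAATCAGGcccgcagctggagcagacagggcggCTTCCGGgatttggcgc

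The 6 stretches of 62 bases had 46 to 56 identical bases in a pair (median 49), and 38 positions were the same in all. These counts include the letters of the word and of the ETS motif, which are identical by selection. Each stretch was chosen for holding both and was cut around them. Marked and unmarked promoters both held these letters. The word stood in 23 of 24 members with the 3 lists (95.8%) and in 7 of 10 with none (70.0%), and the ETS motif in 16 of 24 (66.7%) and 7 of 10 (70.0%). Both together were found in 21 of the 35, in 0 of the 211 other members, which allows a share of up to 1.79%, and in 10 of 265 ZNF genes of other chromosomes (3.77%, 2.06 to 6.81). A match is a run of letters and not a measured site.

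**Figure D5:**
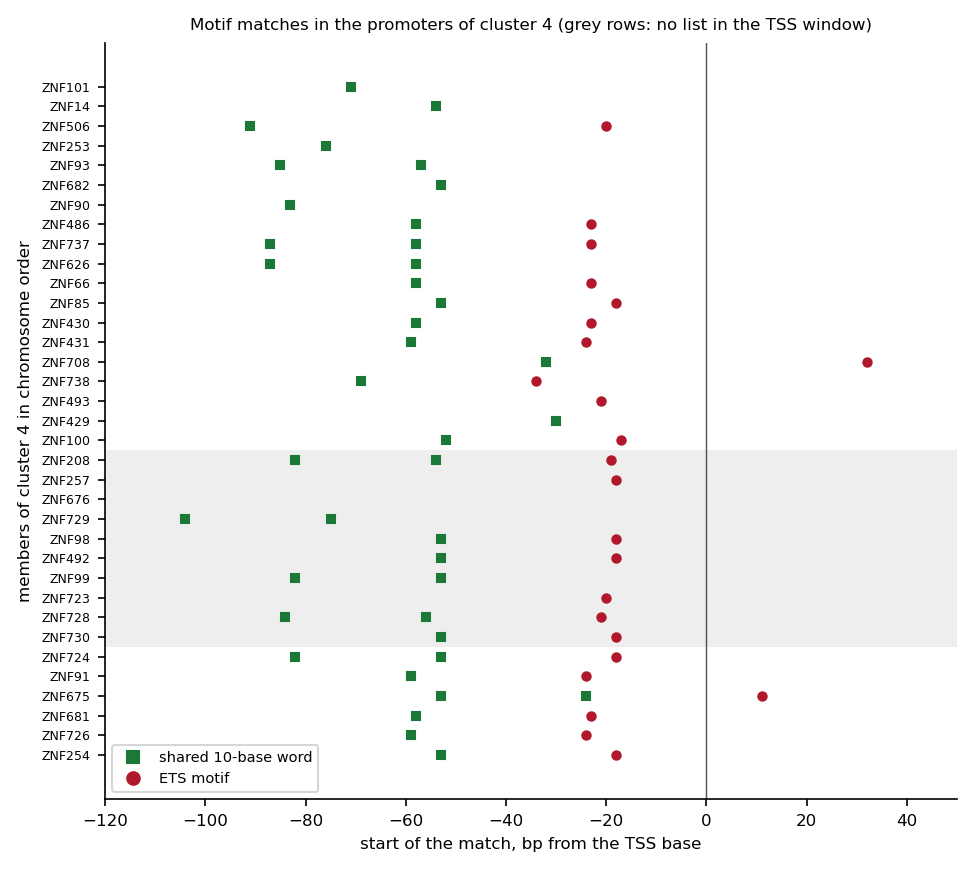
Start of each match (horizontal axis, bases from the TSS) of the shared 10-base word (squares) and the ETS motif (circles) in the promoters of the 35 members of cluster 4, in chromosome order from top to bottom. The grey band holds the 10 members with no peak in the window. Matches line up at similar distances inside and outside the band, with the ETS motif at a median of -20 bases.

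Over all 246 members the ETS motif stood in 110 promoters (44.7%, 38.6 to 51.0), against 15.1% of other chromosome 19 genes and 31.7% of ZNF genes elsewhere. Outside the fourth cluster the members had it in 40.8% (86 of 211), there evenly on both strands, with 49 matches on each. For the other motifs the members lay closer to the share of all promoters: AAGATGGC (YY1) stood in 6.91% of members and 4.06% of all, GCGCNTGCG (NRF1) in 13.0% and 10.9%, TGACGTCA (CRE) in 3.66% and 2.68%, TGANTCA (AP-1) in 5.28% and 5.40%, GGGCGG (GC box) in 67.9% and 61.4%, and CCANNAGNG, a part of the CTCF core, in 13.0% and 17.4%. All were searched on both strands.

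CpG density of the promoters differed by cluster too. The ratio of observed to expected CpG had a median of 0.467 in the fourth cluster and of 0.605 to 0.847 in the others. Under a ratio of 0.4, H3K4me3 was present in 9 of 13 members (69.2%, 42.4 to 87.3) and in 47 of 337 other chromosome 19 genes (13.9%, 10.7 to 18.1). From 0.4 to 0.6 it was present in 32 of 38 members (84.2%, 69.6 to 92.6) and in 54 of 144 others (37.5%). ZNF genes of other chromosomes had it in 6 of 22 (27.3%, 13.2 to 48.2) and 22 of 29 (75.9%, 57.9 to 87.8) over these ranges, and all genes in 12.1% and 43.7%. At 0.8 and over the shares of members and other chromosome 19 genes were 87.5% and 90.5%, with overlapping intervals. At ratios from 0.4 to 0.6, ZNF genes of both sets thus had H3K4me3 more often than the other genes of chromosome 19.

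CTCF touched 33 windows, spread over all clusters but the fifth, with 1 in the fourth (ZNF14, 100 bp). Their median width was 300 bp, and their median distance from the TSS was 267 bp. A peak covered the TSS base of 7 members: ZNF554 (400 bp), ZNF555 (250 bp), ZNF587B (350 bp), and ZNF568, ZNF607, ZNF221 and ZNF611 (300 bp each). Of the members' CTCF peaks, 10 of 33 held CCANNAGNG on either strand, and 35.4% of all 300-bp CTCF peaks did. Below are 100 bases from inside the peaks over ZNF607, where capitals mark a match, and ZNF221, with no match in this stretch (hg19, plus strand, chr19:38210799-38210898 and chr19:44455187-44455286). The ZNF607 stretch was cut around its match and not around the peak centre, and the peak holds 2 matches.
ZNF607: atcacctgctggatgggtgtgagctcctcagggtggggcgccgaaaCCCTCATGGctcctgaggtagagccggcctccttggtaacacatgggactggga
ZNF221: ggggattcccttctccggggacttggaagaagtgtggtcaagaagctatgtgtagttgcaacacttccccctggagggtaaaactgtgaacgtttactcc

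An amino acid signature of the KRAB A-box was found in the canonical protein of 176 members, and CTCF touched 29 of these windows (16.5%, 11.7 to 22.7) and 4 of the other 70 (5.71%, 2.24 to 13.8), where 17.6% of all genes had it. The 70 can include KRAB proteins whose letters deviate from the signature. H3K4me3 stood at 83.5% and 85.7% in these classes, and H3K4me1 at 50.6% (43.2 to 57.9) and 62.9% (51.1 to 73.2).

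ZNF114 (chr19:48773338-48790865, plus strand, 17.5 kb, outside the clusters) was the sole member with all 6 lists. Its window was touched by an H3K4me3 peak of 3950 bp, an H3K27ac peak of 4700 bp, H3K4me1 peaks of up to 900 bp, a Pol II peak of 3950 bp and a CTCF peak of 350 bp that lay 1063 bp downstream of the TSS. Pol II covered 94.7% of its gene body and H3K4me1 64.4%. Its promoter had the lowest CpG ratio of the members, 0.140. The p300/CBP peak nearest to the TSS, of 100 bp, ended 88 bp upstream of it, at chr19:48773151-48773250. Its hg19 plus strand sequence is shown because p300/CBP was found in no other member's window. TGANTCA did not stand in it, and stood in 11.3% of all 100-bp p300/CBP peaks.
ZNF114: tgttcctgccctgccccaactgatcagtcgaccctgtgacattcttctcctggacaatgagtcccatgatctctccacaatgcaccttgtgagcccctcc

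ZNF580 and ZNF581, adjacent genes on the plus strand with TSSs at chr19:56152368 and 56155015, shared the widest H3K4me3 peak of the members (4600 bp), an H3K27ac peak of 4500 bp and the widest Pol II peak (10450 bp). Pol II covered 100% and 95.3% of their bodies. Because the windows overlap, these peaks count for both. The next widest H3K4me3 peaks lay at ZNF114, ZNF460 (3750 bp) and ZNF792 (3600 bp). ZNF792 had 4800 bp of H3K27ac but a Pol II peak of only 400 bp. The next widest Pol II peaks lay at ZNF837 (8850 bp), ZNF446 (6200 bp) and ZNF865 (5400 bp), all in the ninth cluster. ZNF628 had the widest H3K27ac peak (6800 bp) and ZNF507 the widest H3K4me1 peak (6600 bp).

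Gene bodies were read outside the TSS window. H3K4me3 was present in 91 of 246 bodies (37.0%, 31.2 to 43.2) against 44.8% of all genes with a body, H3K27ac in 41 (16.7%, 12.5 to 21.8) against 49.7%, and H3K4me1 in 79 (32.1%, 26.6 to 38.2) against 75.0%. Pol II was present in 77 (31.3%, 25.8 to 37.3) against 38.7%, CTCF in 33 (13.4%) against 46.6%, and p300/CBP in ZNF507 alone (0.407%) against 11.0%. By the share of genes with a peak, every list thus stood below the background, H3K4me3 and Pol II by the least. ZNF genes of other chromosomes had H3K4me3 in 48.5% of bodies, H3K27ac in 39.4%, H3K4me1 in 62.9% and Pol II in 41.7%. Some body peaks ran on from the window. Over all 249 members these were 67 of 139 H3K4me1 and 42 of 140 H3K4me3 peaks, each counted once for every member it lay in. An H3K4me1 peak apart from the window and from other coding TSSs of the gene lay in 27 members. Per length the order depended on the comparison. H3K4me3 covered 1.32% of the bases of the members' bodies, 3.39% of those of other chromosome 19 genes and 0.899% of those of all genes, and Pol II 2.40%, 10.5% and 1.83%. H3K4me3 came to 18.4 peaks per Mb of body in the members, 34.0 in other chromosome 19 genes and 9.81 in all genes, and Pol II to 18.2, 58.7 and 11.5. For these 2 lists the members were therefore below the rest of the chromosome and above the genes at large. ZNF genes of other chromosomes were above the genes at large too. They had 15.7 H3K4me3 and 14.2 Pol II peaks per Mb, covering 1.14% and 1.97% of the bases. H3K4me1 covered 2.29% of the members' bodies, below both the other chromosome 19 genes (16.4%) and all genes (7.90%).

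Pol II touched none of the body in 169 members and covered at least 50% of it in 6. Those were ZNF580, ZNF581, ZNF114, ZNF526 (82.2%, in a window shared with DEDD2), ZNF358 (57.6%) and ZNF784 (53.5%). These genes are short, from 3.83 to 17.5 kb.

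Inner peaks of Pol II and H3K4me3, meaning those inside a gene and at least 1500 bp from any annotated coding TSS, lay toward the 3' end, where the last exon encodes the fingers of most of these genes. A peak inside overlapping genes was counted once for each gene, and the intervals below treat these counts as separate peaks. Of 93 inner Pol II peaks in 62 members, 44 touched the last exon (47.3%, 37.5 to 57.4), where last exons make up 11.5% of the members' length. For other chromosome 19 genes the share was 22.4% (19.9 to 25.1) with last exons at 5.11% of the length. Inner peaks cannot lie near a TSS, while these lengths are of whole genes, so part of the lean follows from the definition. Of 72 inner H3K4me3 peaks in 53 members, 23 touched the last exon (31.9%, 22.3 to 43.4), at a median position of 68.7% of the gene and a median width of 525 bp. For other chromosome 19 genes 13.7% did (10.6 to 17.6), at a median position of 53.5%, so that in both sets the share was above the last exons' share of the length. Of the 72 peaks of the members, 22 touched H3K27ac (30.6%), where 79.8% of the inner H3K4me3 peaks of other chromosome 19 genes did. Inner H3K4me3 of the members was thus mostly narrow and without H3K27ac. ZNF544 had the most inner Pol II peaks (7), and the inner Pol II peak of ZNF557 was 6400 bp wide. ZNF274, which binds the 3' ends of zinc finger genes and recruits SETDB1 there, had 4 H3K4me3 and 5 Pol II peaks in its body, with 0 of H3K27ac.

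ZNF536 and ZNF507 stood apart by their bodies, both being outside the clusters. ZNF536, a regulator of neuronal differentiation and the longest member (489 kb), had an empty window and 6 H3K4me3, 2 H3K27ac, 19 H3K4me1, 0 Pol II and 8 CTCF peaks in its body. ZNF507 had p300/CBP peaks at chr19:32842901-32843200, chr19:32864051-32864400 and chr19:32864551-32865150, and each touched H3K27ac. H3K4me1 covered 46.4% and H3K27ac 24.4% of its body.

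Some members cannot be read alone. The windows of 42 members overlapped that of another protein-coding gene, 18 of them that of another member and 17 that of a gene on the other strand, as with ZNF829 and ZNF568, which share an H3K4me3 peak of 2300 bp. Across the 246 windows, the bases covered by H3K4me3 went with those covered by H3K27ac (Pearson's r 0.87, Spearman's rho 0.85) and by Pol II (0.64 and 0.76) and less with those covered by H3K4me1 (0.47 and 0.58). These describe windows of the same cells that share chromatin, threshold and often ancestry.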

How the data were processed

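Chromatin immunoprecipitation and sequencing in MDA-MB-231 cells gave the deposited lists. In them the authors give the start and end of each peak, and no value for its strength. They made a PASHA signal of uniquely mapped reads in bins of 50 bp, merged replicates and applied thresholds on that signal, with a least length and a largest gap per antibody. The submitters' notes name Bowtie2 and hg19, while the paper's methods name BWA. Background subtraction and scaling are named for the histone lists and for p300/CBP, scaling alone for Pol II, and neither for CTCF. How deeply each sample was sequenced cannot be read from the lists. Input libraries were not used here.

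Positions were compared with Python 3.11.15, numpy 2.4.6, pandas 2.3.3 and scipy 1.17.1, and plots drawn with matplotlib 3.10.9. Genes came from GENCODE release 44 on hg19, and sequences from the GRCh37 genome. A window or body counted as marked when it shared at least 1 bp with a peak. No test was run, since each list stands alone. Shares have 95% Wilson intervals, which cover counting error only, and an upper limit at 0 uses the same interval. The overlap code was tested on simulated data (1000 windows, 0 wrong). The number of unmapped columns was 0. Repeats were measured as 50-base words of a window found elsewhere in the genome.

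The members and lists were chosen with earlier results of these data known. Members were named by class where a class of a cluster held at most 12, and with values if they had p300/CBP in the window, were among the 5 widest in H3K4me3 or Pol II or the 5 most covered by Pol II, had CTCF over the TSS or an odd combination; ZNF114 was named by the study. ZNF91, ZNF93, ZNF274, ZNF536, ZNF507, ZNF544, ZNF557, ZNF626, ZNF628, ZNF724, ZNF784 the examples of the eighth cluster and those of the fourth with printed sequences were named after their values were seen. Alternatives changed the window, the overlap, the width of peaks, the TSS, the treatment of shared or repeated windows and the cluster gap. Part of the sequence data is not reported here.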

Additional observations from a re-analysis of the deposited data

How the results depend on the processing

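Of 81 alternatives, 56 gave a share inside the main value's interval and 25 did not. Of the 81, 15, on H3K4me1 in the fourth cluster, on H3K4me1 beside the 3 lists and on peaks near undetermined sequence, were chosen after seeing the data. When peaks narrower than their list's median were left out, window shares were 78.5% (H3K4me3), 47.6% (H3K27ac, and so candidate active promoters), 18.3% (H3K4me1), 27.2% (Pol II), 8.13% (CTCF) and 0% (p300/CBP), and body shares 26.0% (H3K4me3), 12.2% (H3K27ac), 18.3% (H3K4me1), 22.0% (Pol II) and 6.91% (CTCF). The lowest cluster share of H3K27ac fell from 68.6% to 8.57%, H3K4me1 in that cluster from 2.86% to 0%, and H3K4me1 beside the 3 lists from 65.3% to 35.0%. These shares lose narrow peaks by construction. A window of 1 kb gave H3K4me1 in 19.1%, and in 23.1% beside the 3 lists, and one of 10 kb gave CTCF in 20.7%. Requiring 150 shared bp gave p300/CBP in 0%. Reading the whole gene with its window gave 88.2% (H3K4me3), 85.0% (H3K27ac), 57.3% (H3K4me1), 84.6% (Pol II) and 25.6% (CTCF). Without windows over 5% repeated words, H3K4me1 in the fourth cluster was at 0% (0 of 16). A cluster gap of 500 kb gave 10 clusters and one of 2 Mb gave 6. No paired analysis was possible because replicates were merged before peaks were called, which also meant that none could be dropped in turn. Without depths, shares could not be weighed by precision of the signal.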

Other observations

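The 3 members with no canonical TSS were read from annotated start to end. ZNF442 had 1119 bp under H3K4me3, 869 bp under H3K27ac, 469 bp under Pol II and 69 bp under CTCF. ZNF714, which lies in the fourth cluster, had 1086 bp of H3K4me3, 800 bp of H3K27ac and 336 bp of Pol II. ZNF43, elsewhere in the same cluster, had 800 bp of H3K4me3 in 2 peaks and 200 bp of Pol II, with no H3K27ac. None of the 3 had H3K4me1.

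Cofactors of KRAB zinc finger proteins were read in the same windows. All 23 genes of the list, among them TRIM28, SETDB1, the HP1 genes CBX1, CBX3 and CBX5, and the HUSH subunits TASOR, MPHOSPH8 and PPHLN1, had H3K4me3, H3K27ac and Pol II. H3K4me1 was present in 16 of the 23, CTCF in 2 (ATF7IP and CHD3) and p300/CBP in 0. Of all genes, 56.2% had H3K4me3, H3K27ac and Pol II together, 59.3% H3K4me1, 17.6% CTCF and 0.769% p300/CBP. Among all genes with those 3 lists together, 85.6% had H3K4me1. The TRIM28 window had a Pol II peak of 22050 bp, an H3K4me3 peak of 2450 bp and no H3K4me1. CBX3 had the widest H3K4me3 (9750 bp) and Pol II (23000 bp) peaks of the list, and also no H3K4me1.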
